A study of Rattus norvegicus with 6 samples.

Results

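The genes described here are 37 general myeloid and leukocyte genes, chosen by name: surface molecules, immunoreceptor adaptors, chemokine and growth factor receptors, cytosolic signalling proteins, actin regulators, subunits of the phagocyte oxidase, 2 lysosomal genes and the transcription factor gene Spi1. Of the 37, 33 were found among the 30560 genes of the deposited table, and 32 had a mean of at least 1 FPKM (fragments per kilobase of gene, scaled to library size) over the 6 libraries and were tested. Btk, Cybb, Ccr1 and Dock2 were not analysed here, and Ccr2 was at 1 fragment in all 6 libraries together. The cells were primary cardiac fibroblasts from the ventricles of Sprague-Dawley rats aged 1 to 2 days, which were enriched through their quicker attachment to the dish and then kept overnight without serum. In the antagomiR group (3 libraries) they were transfected with 50 nM of an antagomiR against miR-142-3p, a chemically modified antisense oligonucleotide that binds a mature microRNA, and in the NC group (3 libraries) with 50 nM of a negative control oligonucleotide, both with the same lipid reagent. Whether the 3 libraries of a group stem from different cell isolations is not stated, and the spread that p-values measure here may be technical.

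Most of these genes are known from cells of the blood lineage. Macrophages and neutrophils sense antibody-coated or dying material through receptors that signal by way of small adaptor proteins with an immunoreceptor tyrosine-based activation motif. Src-family kinases phosphorylate that motif, Syk binds it, and Vav and Rac proteins pass the signal to actin and to the oxidase that makes superoxide. The heart contains resident macrophages beside its fibroblasts, and macrophages attach to culture plastic as fibroblasts do. miR-142 is itself known as a microRNA of blood cells. The mature sequence that the antagomiR addresses is shown with its seed (bases 2 to 8) in capitals, as RefSeq gives it for the rat (build GRCr8, chr10:73055155-73055177, plus strand).
rno-miR-142-3p: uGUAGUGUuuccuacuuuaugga

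The libraries held 19472409 to 24622667 fragments, recovered from the steps between FPKM values, so that 3 fragments on a gene of 1 kb amount to 0.122 to 0.154 FPKM, a floor for counting error only. Fibroblast genes dominated all libraries: 12 fibroblast markers summed to 14836 to 15253 FPKM in antagomiR libraries and to 15500 to 15822 FPKM in NC libraries, whereas the 33 leukocyte genes summed to 1709 to 1839 FPKM in antagomiR libraries and to 299.1 to 1089 FPKM in NC libraries. Most of the fibroblast sum came from collagen genes and Fn1. Of the 12 fibroblast markers 6 were called up and 3 down, where 17.5% and 9.21% of all tested genes were. Among the risen, Pdgfra averaged 27.5 FPKM with the antagomiR and 8.53 FPKM in NC. Dcn averaged 33.4 FPKM with the antagomiR and 12.3 FPKM in NC, and Postn 1272 FPKM with the antagomiR and 687 FPKM in NC. The 3 that fell were Col1a2, Vim and Thy1. They averaged 2731, 1240 and 34.0 FPKM with the antagomiR and 3386, 1511.5 and 47.7 FPKM in NC. The part of these changes in the leukocyte results was not tested. NC replicate 3 stood apart from the other NC libraries, both in the leukocyte genes and over the whole table. Over the table, chi-square per degree of freedom on recovered fragments was 31.6 against NC replicate 1 and 23.48 against NC replicate 2. Between NC replicates 1 and 2 it was 6.73. Among the 32 tested leukocyte genes, 31 were highest in NC replicate 3 within the NC group, against 41.9% of all tested genes. Its FPKM was at a median 4.19 times the mean of NC replicates 1 and 2, where all tested genes had a median ratio of 1.00. Results are therefore given with and without NC replicate 3. The leukocyte genes took 0.303% to 0.32% of all fragments in antagomiR libraries, and 0.0467%, 0.0589% and 0.183% in NC replicates 1, 2 and 3. In such bulk samples fewer cells of a type and less RNA per cell cannot be told apart.

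**Figure D1:**
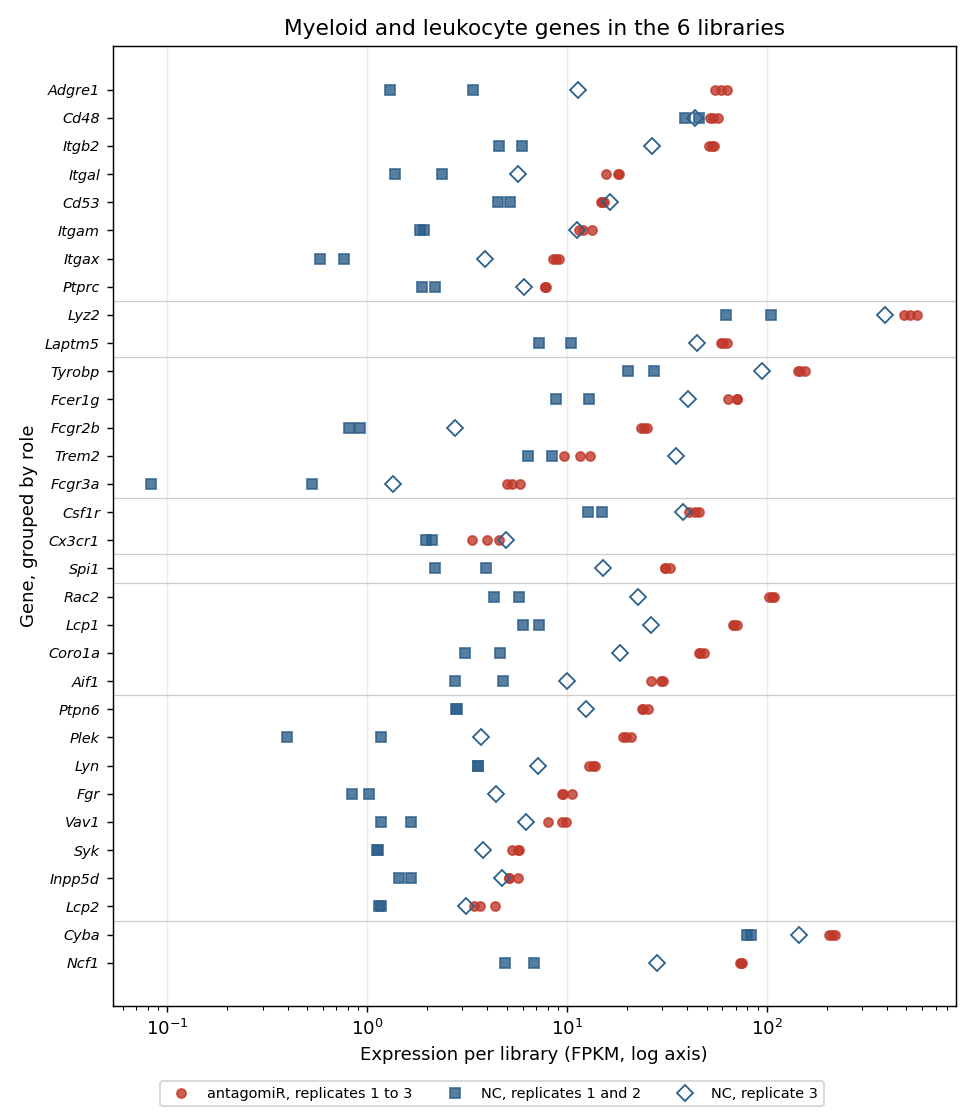
Expression of the 32 tested genes, 1 row per gene grouped by role, in FPKM on a log axis; circles are the 3 antagomiR libraries, filled squares NC replicates 1 and 2 and open diamonds NC replicate 3. The antagomiR libraries lie to the right of NC replicates 1 and 2 in every row, and NC replicate 3 lies above the antagomiR libraries only for Cd53, Trem2 and Cx3cr1.

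Across the set, expression was higher with the antagomiR. By limma on log2(FPKM + 1), with Benjamini-Hochberg adjustment over the 12024 tested genes of the table and a threshold of 0.05, 25 of the 32 tested genes rose, where 17.5% of all tested genes rose. None fell, where 9.21% of all tested genes fell (26.7% were called in either direction); at an unadjusted p under 0.05 the count of fallen genes was likewise 0, as it was by limma voom on the recovered fragments. The median log2 fold change of the 32 genes was 1.96, against 0.06 over all tested genes. Fcgr3a passed the expression filter only through its antagomiR libraries, and without it the count was 24 of 31. In 29 of the 32 genes the 3 antagomiR libraries lay above all 3 NC libraries, as in 29.2% of all tested genes. Without NC replicate 3 all 32 rose, where 26.5% of all tested genes rose and 40.4% were called in either direction, and the median was 2.56. There the antagomiR libraries lay above both remaining NC libraries in all 32, as in 39.8% of all tested genes. The expression filter for that fit was still the mean over all 6 libraries. Itgax, Fgr, Fcgr2b, Fcgr3a and Plek averaged only 0.672, 0.933, 0.867, 0.308 and 0.786 FPKM in NC replicates 1 and 2. These genes passed the filter through the other libraries. The fits with and without NC replicate 3 share 5 libraries and are not independent. With 6 libraries, 65.6% of called genes over the whole table were risen ones, against 51.5% when libraries were scaled by median ratios. Quantile normalization gave 43.1% and moved the middle of all tested genes by -0.11 (log2). The leukocyte genes called up numbered 23 under median ratios and 24 under quantiles. The count of 25 fell to 15 when NC replicate 2 was left out, and to 14, 15 and 14 when antagomiR replicate 1, 2 or 3 was.

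The size of the difference varied widely from gene to gene. The ratio of the antagomiR mean to the NC mean ran from 0.689 for Trem2 to 16.2 for Fcgr2b, with a median of 3.22, and was at least 2 in 27 genes and at least 5 in 10. Set against NC replicate 3 alone, the antagomiR mean was at least 2 times higher in 13 genes and at least 5 times higher in 3, which were Fcgr2b, Plek and Adgre1, and was lower in 3. The spread between libraries was small in the antagomiR group, with coefficients of variation from 0.705% to 15.7% (median 4.31%), and large in the NC group, from 7.98% to 108% (median 89.6%).

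**Figure D2:**
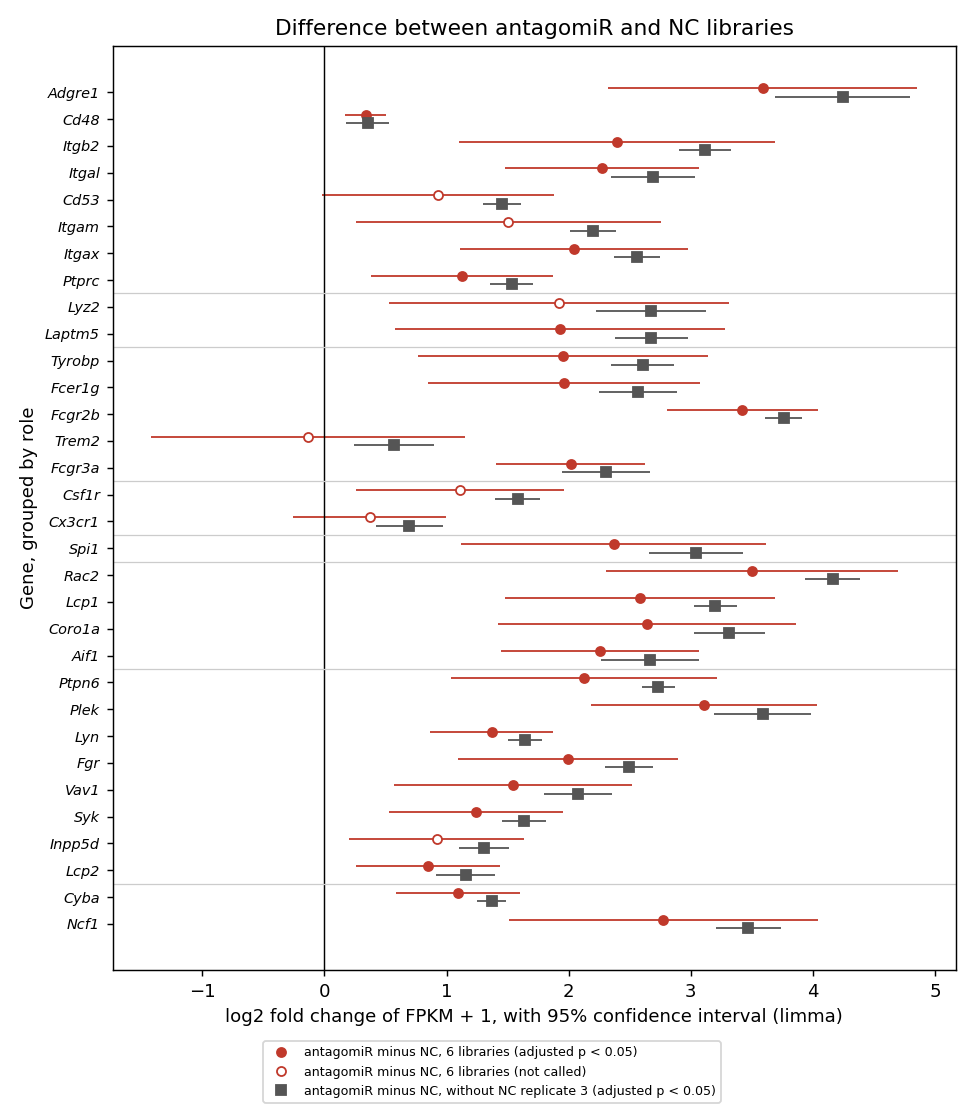
Log2 fold change of FPKM + 1 between antagomiR and NC libraries for the 32 tested genes, grouped by role, with 95% confidence intervals from limma; circles use all 6 libraries (open where not called) and squares leave out NC replicate 3. With 6 libraries the values run from -0.14 for Trem2 to 3.59 for Adgre1, and all squares lie above 0.

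Among the 8 surface and adhesion genes 6 rose, and all 8 without NC replicate 3. The shares of all tested genes that rose were 17.5% and 26.5%, also for the counts by role below. Adgre1 (ENSRNOG00000046254, chromosome 9 from 2242474 to 2398000 in mRatBN7.2) encodes an adhesion-type G protein-coupled receptor widely used as a macrophage marker. It had 55, 59.3 and 63.3 FPKM in antagomiR libraries and 1.3, 3.37 and 11.4 FPKM in NC replicates 1, 2 and 3. All antagomiR libraries were several times above the highest NC library, and the gene rose by 3.59 on the log2 scale (SE 0.54, limma adjusted p = 0.00324). Ptprc, the CD45 phosphatase carried by nearly all leukocytes, differed far less. It stood at 7.84, 7.77 and 7.73 FPKM with the antagomiR and at 1.89, 2.19 and 6.11 FPKM in NC replicates 1 to 3, a log2 fold change of 1.12 (SE 0.32, limma adjusted p = 0.0379). The groups did not overlap, but NC replicate 3 came close to the antagomiR libraries, and the call was lost in 8 of 17 alternative fits (limma adjusted p up to 0.122).

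The beta-2 integrins, which leukocytes use to adhere, did not all move to the same extent. Itgb2, the shared beta chain CD18, had 51.6, 54.2 and 53.2 FPKM in antagomiR libraries and 4.59, 5.96 and 26.8 FPKM in NC libraries (log2 fold change 2.40, limma adjusted p = 0.0177). Its call was lost without NC replicate 2 or any 1 antagomiR library (limma adjusted p = 0.0598 to 0.0674). Of its alpha chain partners, Itgal (CD11a) rose by 2.28 and Itgax (CD11c) by 2.04 on the log2 scale, with limma adjusted p of 0.00313 and 0.00946. Itgam (CD11b, the alpha chain of the complement receptor Mac-1) had 12, 13.4 and 11.5 FPKM with the antagomiR and 1.85, 1.92 and 11.3 FPKM in NC replicates 1 to 3. Its lowest antagomiR library was barely above NC replicate 3, and it was not called with 6 libraries (limma adjusted p = 0.0776), but rose by 2.20 without NC replicate 3 (adjusted p = 2.03e-06). Itgam and Itgax lie 10.1 kb apart on chromosome 1, and without NC replicate 3 their antagomiR means were 6.52 and 13.1 times the NC means.

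Cd48 and Cd53 departed from the others. Cd48, a SLAM-family surface protein, had 56.9, 52.2 and 53.9 FPKM in antagomiR libraries and 45.8, 39.1 and 43.7 FPKM in NC replicates 1 to 3. It was the only tested gene of the set not highest in NC replicate 3 within its group, at 1.03 times the mean of NC replicates 1 and 2 where the other 31 had 1.78 to 5.99 times. Its rise was small, 0.34 on the log2 scale (SE 0.07, limma adjusted p = 0.0127), and was not called without antagomiR replicate 1 or 3 (adjusted p = 0.0572 and 0.0521). Cd53, a tetraspanin of leukocytes, had 15.3, 14.9 and 14.8 FPKM with the antagomiR and 5.17, 4.51 and 16.4 FPKM in NC replicates 1 to 3. NC replicate 3 lay above all antagomiR libraries there, so the groups overlapped, and Cd53 was called only without that library (6 libraries 0.93, limma adjusted p = 0.133; without NC replicate 3 1.46, adjusted p = 5.98e-06).

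Among 5 Fc receptor and adaptor genes, 4 rose. Tyrobp and Fcer1g encode the adaptors DAP12 and the Fc receptor gamma chain, both of which carry the activation motif. Tyrobp had 155, 143 and 146 FPKM in antagomiR libraries and 20.3, 27.3 and 94.6 FPKM in NC replicates 1 to 3, and Fcer1g had 70.7, 64 and 71.2 FPKM with the antagomiR and 8.86, 13 and 40.3 FPKM in NC. Both rose to nearly the same extent, by 1.95 and 1.96 on the log2 scale (limma adjusted p = 0.0278 and 0.0218). The call of Tyrobp was lost in each of the 5 fits that left out a library other than NC replicate 3, and that of Fcer1g in 4 of them. The span of Fcer1g in the table overlaps those of Ppox and Adamts4, among others, and with no strand setting given in the sources used here, its reads cannot be told apart from theirs in shared stretches. Ppox averaged 7.3 FPKM with the antagomiR and 6.87 FPKM in NC, and Adamts4 averaged 2.04 FPKM with the antagomiR and 0.693 FPKM in NC.

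The receptor with the largest fold change of the group was Fcgr2b. Fcgr2b (ENSRNOG00000046452, chromosome 13 from 83193163 to 83207778), the inhibitory receptor for immunoglobulin G, had 25.2, 24.3 and 23.4 FPKM in antagomiR libraries and 0.925, 0.809 and 2.77 FPKM in NC replicates 1 to 3. It had the largest fold over NC replicate 3 of the set, 8.77 times, and a log2 fold change of 3.42 (SE 0.26, limma adjusted p = 0.000206). Fcgr3a, an activating receptor that RefSeq also lists as Fcgr4 in the rat, had 5.31, 5.81 and 5.02 FPKM with the antagomiR, from 146, 177 and 142 fragments. In NC replicates 1 to 3 it had 0.083, 0.533 and 1.35 FPKM, which amount to 2, 16 and 33 fragments, and it rose by 2.02 (limma adjusted p = 0.0017). The 2 genes lie 42.1 kb apart, and Fc receptor genes are similar in sequence, so reads that match both may have been left out or assigned to the wrong gene.

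Trem2, like Cd53 and Cx3cr1, was lower in every antagomiR library than in NC replicate 3. It encodes a lipid-sensing receptor that signals through DAP12. Its values were 13.1, 11.6 and 9.7 FPKM in antagomiR libraries and 6.4, 8.44 and 35.1 FPKM in NC replicates 1 to 3. NC replicate 3 was the highest of the 6 libraries by far, while NC replicates 1 and 2 were the lowest. The log2 fold change was -0.14 (SE 0.54, limma adjusted p = 0.881) with 6 libraries and 0.57 (SE 0.14, adjusted p = 0.0157) without NC replicate 3, so its direction rests on that library. That call was lost without a filter on low genes (adjusted p = 0.0759) and when NC replicate 1 was left out too (adjusted p = 0.0838, limma).

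The receptors for growth factors and chemokines were not called with 6 libraries. Csf1r, the receptor for macrophage colony-stimulating factor, had 45.9, 40.7 and 43.5 FPKM in antagomiR libraries and 12.8, 14.9 and 38.2 FPKM in NC replicates 1 to 3. The groups did not overlap, although NC replicate 3 lay close below the antagomiR libraries, and the log2 fold change was 1.11 (SE 0.36, limma adjusted p = 0.0598). Cx3cr1, the fractalkine receptor, had 3.33, 3.97 and 4.58 FPKM with the antagomiR and 1.97, 2.12 and 4.97 FPKM in NC replicates 1 to 3. Its groups overlapped through NC replicate 3, which was the highest library (log2 fold change 0.37, limma adjusted p = 0.346). Without NC replicate 3 Csf1r rose by 1.58 and Cx3cr1 by 0.70 (limma adjusted p = 8.05e-06 and 0.003). Ccr2, the receptor for the monocyte chemokine Ccl2, is listed at 0 in all antagomiR libraries and in NC replicates 1 and 2 and at 0.0234 FPKM in NC replicate 3, from 1 fragment. A listed 0 need not be the level in the cells.

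Spi1 encodes PU.1, a transcription factor of myeloid cells. It had 31.1, 31.1 and 32.9 FPKM in antagomiR libraries and 2.18, 3.94 and 15.1 FPKM in NC replicates 1 to 3. The groups did not overlap, and it rose by 2.37 (SE 0.53, limma adjusted p = 0.0163). The call was lost without NC replicate 2 or any 1 antagomiR library, with adjusted p between 0.0559 and 0.064.

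PU.1 is known to bind purine-rich sites with the core GAGGAA, and the promoters of the set were searched for these letters on both strands. RefSeq promoters of GRCr8, from 250 bases before to 50 bases after the gene's start, matched 21 of the 33 genes by symbol. The motif was found on either strand in 12 of the 21 (57.1%), and in 27.6% of all 33469 promoters of that length. Of the genes with a match, Adgre1, Laptm5, Ptprc, Syk, Vav1 and Fcgr3a rose with 6 libraries. Lyz2, Csf1r, Itgam, Cd53, Trem2 and Inpp5d had a match too and were not called. No match was found for Itgax, Cd48, Coro1a, Fgr, Cyba, Ncf1 and Ptpn6, which rose. Neither was one found for Cx3cr1, which was not called, and Ccr2, which was not tested. Rac2, Fcgr2b, Plek, Lcp1 and Itgb2, which also rose, were among the genes without a promoter found by symbol. A match is a description of these letters, and binding was not measured. Shown are 5 of the promoters with a match, with the matches in capitals (TTCCTC where the match is on the opposite strand). Adgre1 and Vav1 are neighbours, Lyz2 has the highest mean FPKM of the set, and Csf1r and Trem2 were not called with 6 libraries. Their positions are chr9:2329190-2329489 (plus strand) for Adgre1, chr9:2248705-2249004 (plus) for Vav1, chr7:54797962-54798261 (minus) for Lyz2, chr18:56834129-56834428 (plus) for Csf1r and chr9:20151730-20152029 (minus) for Trem2.
Adgre1: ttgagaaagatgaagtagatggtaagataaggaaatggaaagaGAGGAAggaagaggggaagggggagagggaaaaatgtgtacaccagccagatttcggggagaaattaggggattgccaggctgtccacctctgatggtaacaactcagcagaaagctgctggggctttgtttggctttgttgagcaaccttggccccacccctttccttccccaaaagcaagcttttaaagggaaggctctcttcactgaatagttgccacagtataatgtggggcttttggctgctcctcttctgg
Vav1: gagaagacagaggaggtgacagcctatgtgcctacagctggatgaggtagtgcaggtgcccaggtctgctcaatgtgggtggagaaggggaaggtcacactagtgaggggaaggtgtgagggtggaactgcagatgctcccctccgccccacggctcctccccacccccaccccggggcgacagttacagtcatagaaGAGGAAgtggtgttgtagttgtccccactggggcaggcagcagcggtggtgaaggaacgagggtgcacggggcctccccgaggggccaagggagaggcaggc
Lyz2: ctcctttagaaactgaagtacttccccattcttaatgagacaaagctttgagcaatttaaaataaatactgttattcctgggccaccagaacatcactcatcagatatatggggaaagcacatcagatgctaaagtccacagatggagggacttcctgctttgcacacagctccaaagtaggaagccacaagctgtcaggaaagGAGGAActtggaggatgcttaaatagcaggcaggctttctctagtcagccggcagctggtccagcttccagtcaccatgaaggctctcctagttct
Csf1r: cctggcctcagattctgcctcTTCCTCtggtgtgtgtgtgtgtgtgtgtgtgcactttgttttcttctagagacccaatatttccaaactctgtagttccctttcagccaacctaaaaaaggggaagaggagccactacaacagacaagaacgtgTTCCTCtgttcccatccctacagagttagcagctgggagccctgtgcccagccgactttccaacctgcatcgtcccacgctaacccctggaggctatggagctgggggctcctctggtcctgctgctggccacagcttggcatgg
Trem2: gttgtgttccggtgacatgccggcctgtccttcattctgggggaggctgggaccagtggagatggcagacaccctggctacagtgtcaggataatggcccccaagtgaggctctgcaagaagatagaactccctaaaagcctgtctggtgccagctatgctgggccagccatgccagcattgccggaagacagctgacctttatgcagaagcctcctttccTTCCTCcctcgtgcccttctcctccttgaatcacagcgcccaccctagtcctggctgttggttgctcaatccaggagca
The match nearest to the gene's start begins 207 bases before it in Adgre1, 52 in Vav1, 46 in Lyz2, 95 in Csf1r and 29 in Trem2. Genes with antagomiR means below NC replicate 3 were found with a match (Trem2 and Cd53, at 0.327 and 0.913 times that library) and without one (Cx3cr1, at 0.796 times).

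Genes of cytosolic signalling rose in 7 of 8 cases. Plek, a protein kinase C substrate of leukocytes and platelets, changed most. It had 19.2, 19.8 and 21 FPKM in antagomiR libraries and 0.396, 1.18 and 3.74 FPKM in NC replicates 1 to 3, and rose by 3.11 (SE 0.39, limma adjusted p = 0.00162). The antagomiR libraries were all over 5 times NC replicate 3. The Src-family kinase genes Fgr and Lyn rose by 2.00 and 1.37 (limma adjusted p = 0.00882 and 0.00385). Fgr had 9.48, 10.6 and 9.55 FPKM with the antagomiR and 0.843, 1.02 and 4.41 FPKM in NC replicates 1 to 3, and Lyn had 13, 13.8 and 13.5 FPKM with the antagomiR and 3.61, 3.61 and 7.14 FPKM in NC.

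Syk, which binds the phosphorylated activation motif, had 5.7, 5.32 and 5.76 FPKM with the antagomiR and 1.12, 1.13 and 3.8 FPKM in NC replicates 1 to 3. It rose by 1.24, and Vav1, an exchange factor for Rac proteins downstream of it, by 1.54 (limma adjusted p = 0.0229 and 0.0321). Syk lost its call in 6 of 16 alternative fits and Vav1 in 7 of 17 (adjusted p up to 0.0801 and 0.108, limma). Vav1 lies 33.5 kb from Adgre1 on chromosome 9, yet its antagomiR mean was 6.48 times that of NC replicates 1 and 2, where the ratio of Adgre1 was 25.3. Lcp2, the scaffold protein SLP-76, had 3.45, 3.69 and 4.37 FPKM in antagomiR libraries and 1.15, 1.18 and 3.11 FPKM in NC replicates 1 to 3. It rose by 0.85 at a limma adjusted p of 0.0452, and lost its call in 13 of 16 alternative fits.

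Of the inhibitory phosphatase genes, Ptpn6 was called with 6 libraries and Inpp5d was not. Both were called without NC replicate 3, and the groups overlapped in neither. Ptpn6 encodes SHP-1, a phosphatase that inhibitory receptors recruit. It had 23.8, 23.9 and 25.4 FPKM with the antagomiR and 2.78, 2.83 and 12.5 FPKM in NC replicates 1 to 3, and rose by 2.13 (limma adjusted p = 0.0145). Its call was lost in the fits without NC replicate 2 or any 1 antagomiR library (limma adjusted p = 0.0514 to 0.0542). Inpp5d (SHIP-1), a lipid phosphatase recruited by Fcgr2b, had 5.71, 5.12 and 5.14 FPKM with the antagomiR and 1.45, 1.67 and 4.73 FPKM in NC replicates 1 to 3. Its log2 fold change was 0.92 without a call (limma adjusted p = 0.0629), and it rose by 1.31 without NC replicate 3 (adjusted p = 3.09e-05).

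All 4 tested regulators of Rac and actin rose, and the calls held in every alternative fit. Rac2 (ENSRNOG00000007350, chromosome 7 from 110116260 to 110128720), the Rac protein of blood cells, had 106, 103 and 109 FPKM in antagomiR libraries and 4.3, 5.73 and 22.6 FPKM in NC replicates 1 to 3. Its log2 fold change was 3.50 (SE 0.51, limma adjusted p = 0.00281), and by mean FPKM it ranked 4 of the 33 genes with the antagomiR and 12 in NC. Coro1a (coronin 1A), Lcp1 (L-plastin, which bundles actin) and Aif1 (Iba1, an actin-binding macrophage marker) rose by 2.64, 2.58 and 2.25 (limma adjusted p = 0.00988, 0.00725 and 0.00353). Lcp1 had 70.8, 67.4 and 68.7 FPKM with the antagomiR and 6.01, 7.27 and 26.5 FPKM in NC replicates 1 to 3. Coro1a had 48.8, 45.7 and 46.1 FPKM with the antagomiR and 3.1, 4.64 and 18.5 FPKM in NC, and Aif1 had 29.4, 26.3 and 30.3 FPKM with the antagomiR and 2.75, 4.81 and 9.96 FPKM in NC. In all 4 genes the antagomiR libraries lay above NC replicate 3.

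Both tested subunits of the phagocyte oxidase rose, by unlike amounts. Ncf1, the cytosolic organizer subunit, had 73.6, 74.7 and 75.5 FPKM in antagomiR libraries and 4.88, 6.88 and 28.1 FPKM in NC replicates 1 to 3, and rose by 2.77 (SE 0.54, limma adjusted p = 0.00926). Cyba, the small membrane subunit, which other NADPH oxidases also use, was high in all libraries. It had 220.4, 204 and 213 FPKM with the antagomiR and 79.3, 83.8 and 145 FPKM in NC replicates 1 to 3, and rose by 1.09 (SE 0.21, limma adjusted p = 0.00975). The groups overlapped for neither gene. From the other list of leukocyte genes, Ncf4, a further cytosolic subunit, averaged 24.3 FPKM with the antagomiR and 2.72 FPKM in NC and rose by 2.93 (limma adjusted p = 0.00138).

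Lyz2, the lysozyme of macrophages, had the highest mean FPKM of the set in both groups, although Cyba was higher in NC replicate 1, and made up 28.3% to 30.8% of its summed FPKM in antagomiR libraries and 21.0% to 35.8% in NC libraries. Its values were 566, 484 and 520.3 FPKM with the antagomiR and 62.7, 105 and 389.6 FPKM in NC replicates 1 to 3. The groups did not overlap, but the log2 fold change of 1.92 (SE 0.59) missed the threshold with 6 libraries (limma adjusted p = 0.0511). It was called, at 1.92 to 1.94, with a filter at 5 FPKM, quantile normalization, a replicate block or voom (adjusted p = 0.0479, 0.0397, 0.0465 and 0.0306), and at 2.67 without NC replicate 3 (adjusted p = 4.72e-05). In all other alternative fits it was not called, with a limma adjusted p of up to 0.15 (without NC replicate 2). RefSeq lists Lyz1 as a synonym of this gene, and reads of near-identical lysozyme genes could not be told apart. Laptm5, a lysosomal membrane protein of blood cells, had 63.5, 59.3 and 60.3 FPKM with the antagomiR and 7.22, 10.5 and 44.7 FPKM in NC replicates 1 to 3. It rose by 1.93 (limma adjusted p = 0.0454), a call lost in 11 of 17 alternative fits.

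To compare leukocyte genes with each other inside a library, each was also divided by Ptprc, the general leukocyte gene, in that library. These ratios are descriptions with no test. Of the 31 other tested genes, 20 had a higher ratio to Ptprc in every antagomiR library than in every NC library and 5 a lower one. Of all tested genes 2.3% had a higher and 72.5% a lower ratio, since the denominator was itself higher with the antagomiR. The antagomiR mean of Ptprc was 2.29 times its NC mean, below the median of 3.22 times for the 32 tested genes. The count of higher ratios thus depends on this denominator. The 20 remained higher and the 5 remained lower without NC replicate 3, where the counts were 22 and 7 and the shares of all tested genes 2.45% and 96%. The ratio of Fcgr2b to Ptprc was 3.03 to 3.22 in antagomiR libraries and 0.369 to 0.49 in NC libraries. That of Adgre1 was 7.01 to 8.19 in antagomiR libraries and 0.69 to 1.86 in NC libraries. That of Rac2 was 13.2 to 14.1 with the antagomiR and 2.28 to 3.7 in NC. In these 3 ratios NC replicate 3 lay nearer to the other NC libraries than to the antagomiR libraries.

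Trem2, Cx3cr1, Cd53, Csf1r and Inpp5d were the 5 with a lower ratio. Trem2 stood at 1.26 to 1.67 times Ptprc in antagomiR libraries and at 3.39, 3.85 and 5.75 times in NC replicates 1 to 3. Cx3cr1 stood at 0.425 to 0.592 times Ptprc with the antagomiR and at 0.813 to 1.05 times in NC. With the geometric mean of the 32 tested genes as denominator, which centres the set on itself, 14 genes were higher and 12 lower, where 1.2% and 92.9% of all tested genes were. Ptprc itself was at 0.3 to 0.308 times that mean in antagomiR libraries and at 0.449 to 0.603 times in NC libraries, so that genes higher on this denominator are also higher relative to Ptprc. The 14 were Adgre1, Itgb2, Itgal, Itgax, Fcgr2b, Fcgr3a, Spi1, Rac2, Coro1a, Lcp1, Fgr, Plek, Ptpn6 and Ncf1. Tyrobp, Fcer1g and Syk were higher than in all NC libraries relative to Ptprc, but lower than in all NC libraries on this denominator. Their antagomiR mean ratios were there 0.877, 0.91 and 0.727 times those of NC. The ratio of Cd48 to Ptprc was 6.72 to 7.27 in antagomiR libraries and 24.2, 17.9 and 7.16 in NC replicates 1 to 3, so that NC replicate 3 lay among the antagomiR libraries.

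**Figure D3:**
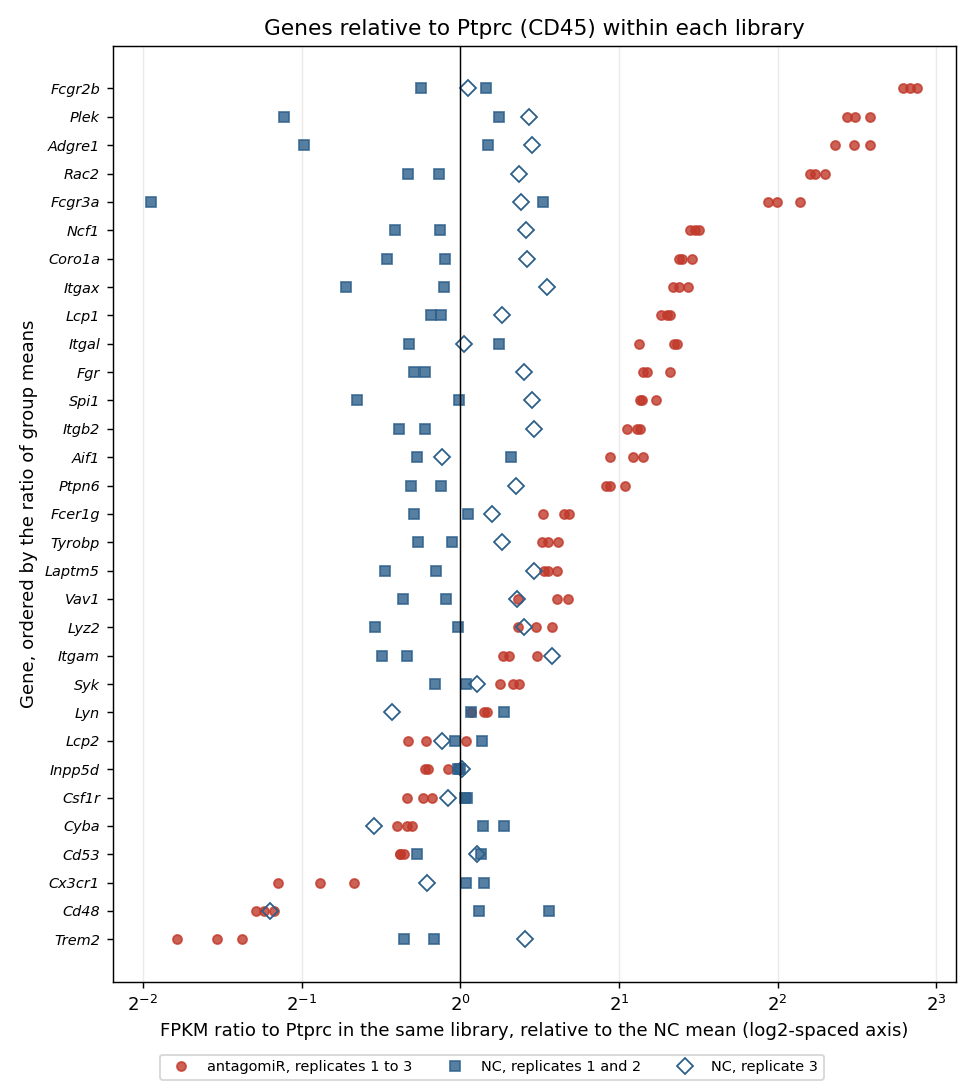
FPKM of 31 genes divided by that of Ptprc in the same library, relative to the mean ratio of the 3 NC libraries (log2-spaced axis); circles are antagomiR libraries, filled squares NC replicates 1 and 2 and open diamonds NC replicate 3. Genes run down from the highest to the lowest ratio of group means, from Fcgr2b at 7.14 to Trem2 at 0.34.

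Further leukocyte genes were taken from a list of 75, of which 70 were in the table and 62 were tested. With 6 libraries 35 of them rose and 1 fell, where 17.5% of all tested genes rose and 9.21% fell. The median was 0.92 on the log2 scale. Of the risen genes, Cd86 and Arhgap25 passed the expression filter only through their antagomiR libraries. Without NC replicate 3, 55 rose and 2 fell, where 26.5% and 13.9% of all tested genes did, and the median was 1.25. Some of the 55 averaged under 1 FPKM in NC replicates 1 and 2. The largest rises among those with the smallest p were in Fcgr1a, the high-affinity receptor for immunoglobulin G, and Ncf4. Fcgr1a averaged 30.6 FPKM in antagomiR libraries and 3.92 FPKM in NC libraries, a log2 fold change of 2.82 (limma adjusted p = 0.00131). P2ry6, a receptor for nucleotides, and Lsp1, an actin-binding protein of leukocytes, had the smallest p of the list. P2ry6 averaged 19 FPKM with the antagomiR and 7.6 FPKM in NC, and Lsp1 averaged 32.1 FPKM with the antagomiR and 13.8 FPKM in NC (log2 fold changes of 1.22 and 1.15, limma adjusted p = 0.000186 and 0.000617). The gene that fell was Runx1, at 26.4 FPKM with the antagomiR and 34.7 FPKM in NC (-0.38, limma adjusted p = 0.00212), and the second without NC replicate 3 was Mpeg1 (-0.37, adjusted p = 0.0152).

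Markers of single leukocyte types were mostly low. Of 10 measured resident macrophage markers 6 were tested, and Cd163, Lyve1, F13a1 and Vsig4 were at no more than 0.18 FPKM in any library. Of the 6 only Folr2, a folate receptor, was called, where 17.5% of all tested genes rose. Folr2 rose by 1.76 (limma adjusted p = 0.0233), with 17.4 FPKM in antagomiR libraries and 5.41 FPKM in NC libraries. The other 5 were not called, with log2 fold changes of -0.27 for Stab1, 0.10 for Mrc1, 0.14 for C1qa, 0.15 for C1qb and 0.31 for C1qc, and the median of the 6 was 0.14. Without NC replicate 3, 5 of the 6 rose, where 26.5% of all tested genes rose, and the median was 0.61. The 10 markers summed to 50.5 to 55.5 FPKM in antagomiR libraries and to 21.1, 27.2 and 73.0 FPKM in NC replicates 1 to 3, so that NC replicate 3 was highest. Markers of B cells, NK cells and mast cells were all under 1 FPKM in every library. Cd3e and Cd247 of the T cell receptor complex are listed at 0 in every library and Cd3d and Cd3g at no more than 0.0685 FPKM, and Thy1, which fibroblasts also express, made up most of the T cell sum. Of 12 neutrophil markers 11 were under 1 FPKM in every library, among them S100a8, and S100a9, Elane, Mpo and Ltf are listed at 0. The exception was Camp, which encodes cathelicidin, at 3.53, 2.01 and 2.39 FPKM in antagomiR libraries and at 0, 0 and 0.0866 FPKM in NC libraries (limma adjusted p = 0.000379). Camp passed the expression filter only through its antagomiR libraries. Of 10 tested cardiomyocyte markers 3 rose and 2 fell (median 0.19 on the log2 scale); their sum was lower with the antagomiR and was mostly Tnnt2, with means of 254 FPKM in antagomiR and 339 FPKM in NC libraries. Cardiomyocyte markers summed to 360.7 to 427.7 FPKM in antagomiR libraries and to 445.9 to 491.1 FPKM in NC libraries, and endothelial markers to 6.24 to 6.93 FPKM with the antagomiR and 3.46 to 5.04 FPKM in NC. Mural markers summed to 1964 to 2069 FPKM with the antagomiR and to 3048 to 3300 FPKM in NC. That sum was mostly Acta2, with means of 1795 FPKM with the antagomiR and 2959 FPKM in NC. Of 6 tested mural markers 4 fell, where 9.21% of all tested genes fell. Pdgfrb (186 FPKM with the antagomiR, 198 FPKM in NC) and Des (4.16 and 3.07 FPKM) were not called. The part of cell composition in the results for the leukocyte genes was not tested.

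**Figure D4:**
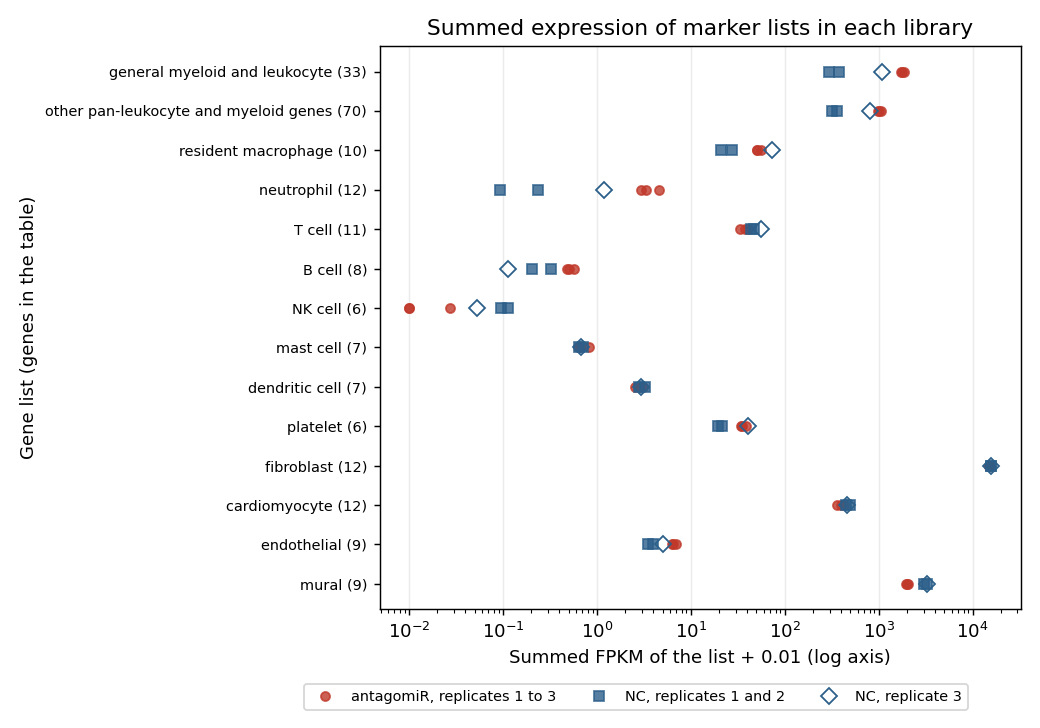
Summed FPKM + 0.01 of each gene list in each library (log axis), with the number of genes found in the table in parentheses; circles are antagomiR libraries, filled squares NC replicates 1 and 2 and open diamonds NC replicate 3. The general leukocyte genes sum to 1709 to 1839 FPKM in antagomiR libraries and to 299.1, 373.7 and 1089 FPKM in NC replicates 1 to 3. The fibroblast sums lie close together on this axis, at 14836 to 15253 FPKM in antagomiR libraries, all below the 15500 to 15822 FPKM of NC libraries.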

How the data were processed

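Polyadenylated RNA was sequenced in pairs of 150 bp, per the labels' protocols. FastQC, cutadapt, HISAT2 and HTSeq are among the tools in the submitters' processing notes, which name the build mRatBN7.2; versions, annotation release and strand setting are not given in the sources used here. FPKM as the authors deposited them cover 30560 genes, with 1 column per library, assigned by name.

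Library totals were recovered from FPKM steps of genes under 400 bp, after which all 20134 genes above 0 gave whole fragments within 0.001. Chi-square per degree of freedom between replicates was 3.53 to 31.6, so none was a repeat of another. The highest values were those of NC replicate 3 against the other NC libraries. The two-sided test was limma 3.58.1 in R 4.3.3 (variance trend) on log2(FPKM + 1), kept to genes averaging 1 FPKM or more, with all 6 libraries and without NC replicate 3. Fold changes are antagomiR minus NC and understate those of low genes. Scripts were tested on simulated data. Alternatives were pseudocounts of 0.1 and 0.01, other filters, median-ratio and quantile scaling, a replicate block, no trend, robust variances, limma voom on recovered fragments and leaving out each library.

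The genes and lists were chosen with earlier results of these data known. All 37 genes are accounted for, and up to 4 genes of smallest p and defining markers at 0 are named from other lists. Mpeg1, S100a8, Mrc1, C1qb, Fn1, Cd3d, Cd3g, Runx1, Cd86, Arhgap25, Col1a2, Vim, Ppox and Adamts4 were named after their values were seen. So were Cd163, Lyve1, F13a1, Vsig4, Pdgfrb and Des.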

Additional observations from a re-analysis of the deposited data

How the results depend on the processing

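The count of called leukocyte genes was 19 to 29 under other pseudocounts, filters, scalings, variance settings, a replicate block or voom, and 14 to 32 when 1 library was left out, with 0 called down in each. Of the 25 called genes, 14 kept the call in every alternative run and 11 lost it in at least 1; leaving out a library lowers the number of samples. Over pairs of gene and setting, 454 of 539 gave the same direction and call, 71 lost the call, 13 gained it and 1 reversed: Trem2, which ranged from -0.58 to 0.57 with 1 library left out and was called up without NC replicate 3. Csf1r, Itgam and Inpp5d, not called on log2(FPKM + 1) with 6 libraries, were called up by limma voom (adjusted p = 0.0299, 0.0253 and 0.022). In the fit without NC replicate 3, 505 of 507 gave the same direction and call and 2 lost it, both of Trem2. The 3216 calls over all genes became 1883 to 4862 with 1 library left out. No label links equal replicate numbers to the same cell isolation. Deviations of equal numbers correlated at -0.16, -0.06 and -0.04, and those of unequal numbers at -0.06 to 0.13. The deviations of the 3 libraries in a group depend on each other, so these correlations cannot decide whether equal numbers share an isolation. With the replicate block 2380 genes over the table and 26 leukocyte genes were called, and without NC replicate 3 the block gave 3141 calls in place of 4862; the cause was not tested. Depth limits low genes most: Fcgr3a rests on 2 fragments in NC replicate 1.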

Other observations

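Some markers of single cell types moved beside the leukocyte genes. Il7r, a cytokine receptor subunit known from lymphoid cells, had 2.41, 3.11 and 2.83 FPKM in antagomiR libraries and 0.477, 0.436 and 1.54 FPKM in NC replicates 1 to 3 and rose by 1.10 on the log2 scale (limma adjusted p = 0.0114); it passed the expression filter only through its antagomiR libraries. Pf4, a chemokine of platelets that macrophages also express, had 29.9, 24.9 and 25.5 FPKM with the antagomiR and 5.25, 9.18 and 26.2 FPKM in NC replicates 1 to 3, where NC replicate 3 lay among the antagomiR libraries. It was not called with 6 libraries (1.21, limma adjusted p = 0.107) and rose by 1.80 without NC replicate 3 (adjusted p = 0.000327), while the platelet genes Ppbp and Gp9 are listed at 0 in all libraries.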
